A study of Mus musculus with 6 samples.

Results

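The 10 genes described here mark dendritic cells and Langerhans cells, or encode ligands that those cells respond to. They were chosen by name from a table of 770 genes measured in primary tumours of mice with oral squamous cell carcinoma, a cancer of the mouth lining that was induced with the chemical carcinogen 4NQO. Of the 10 symbols, 9 matched the table letter for letter and 1, CD209e, matched once case was ignored. The comparison was between 2 groups of tumours with 3 samples each. Animals of 1 group received an agonistic antibody to CD40 and animals of the other received vehicle, and both groups carried 4NQO-induced tumours. The RNA came from formalin-fixed, paraffin-embedded tissue. The sources used here do not give the mouse strain, age, antibody clone, dose or time of sampling. Nor do they state that each sample came from its own animal, so the p-values cover only the sample-to-sample spread, some of which may be technical. In bulk tumour RNA, fewer cells of a type and less RNA per cell cannot be told apart.

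Dendritic cells take up antigen, carry it to lymph nodes and present it to T cells. They arise from bone marrow precursors under the cytokine Flt3 ligand, and a conventional subset that carries the receptor Xcr1 specialises in presenting antigen to CD8 T cells. Langerhans cells are antigen-presenting cells of stratified epithelium such as the oral mucosa and carry the lectin langerin. CD40 on dendritic cells is normally engaged by CD40 ligand on helper T cells, which drives their maturation, and agonistic antibodies to CD40 are used to mimic that signal.

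Expression was given as log2 normalized counts, the unit of all levels below, and differences are anti-CD40 minus vehicle on that scale. Whole counts recovered from these values summed to between 333400 and 497475 per library in the anti-CD40 group and between 357258 and 578598 in the vehicle group. The background limit of a library was set at the mean plus 2 SD of its 8 negative controls, which came to 24.7 to 26.6 counts. On the log2 scale the limit was 5.94, 6.02 and 6.24 in anti-CD40 tumours 1 to 3 and 5.66, 6.52 and 5.57 in vehicle tumours 1 to 3. Of all genes, 523 lay above it in every library and 82 in none. The panel held markers of the labelled tissue, with 5 of 8 listed epithelial and carcinoma genes measured and 3 of those above background in every library, but the listed keratins were not among the genes analysed here.

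None of the 10 dendritic and Langerhans cell genes passed the test between anti-CD40 and vehicle tumours. The mean was lower in anti-CD40 tumours for 9 of the 10 and higher for CD209e, beside 45.5% of all genes with a lower mean, and the median difference was -0.19 for the 10 genes and 0.038 for all 770. The count of 9 was 5 without vehicle 2, 6 with values under the background limit raised to it and 3 with each library centred on Ptprc, the leukocyte gene described below. The largest differences were those of Clec7a, -0.77, and Flt3, -0.75 on the log2 scale. Of the 3 anti-CD40 libraries, 2 were above background for Clec7a and 1 for Flt3. By limma, 0 of the 10 genes passed an adjusted p of 0.05, as did 0% of the 770, and every one of the 10 had an adjusted p of 0.974. Flt3 alone had an unadjusted p under 0.05, 1 of 10 genes beside 3.25% of all. Groups that did not overlap were found for 0 of the 10 genes, beside 10.3% of all genes, and 3.51% of all genes were lower in that way. An exact permutation test of 3 against 3 samples cannot give a p under 0.1.

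**Figure D1:**
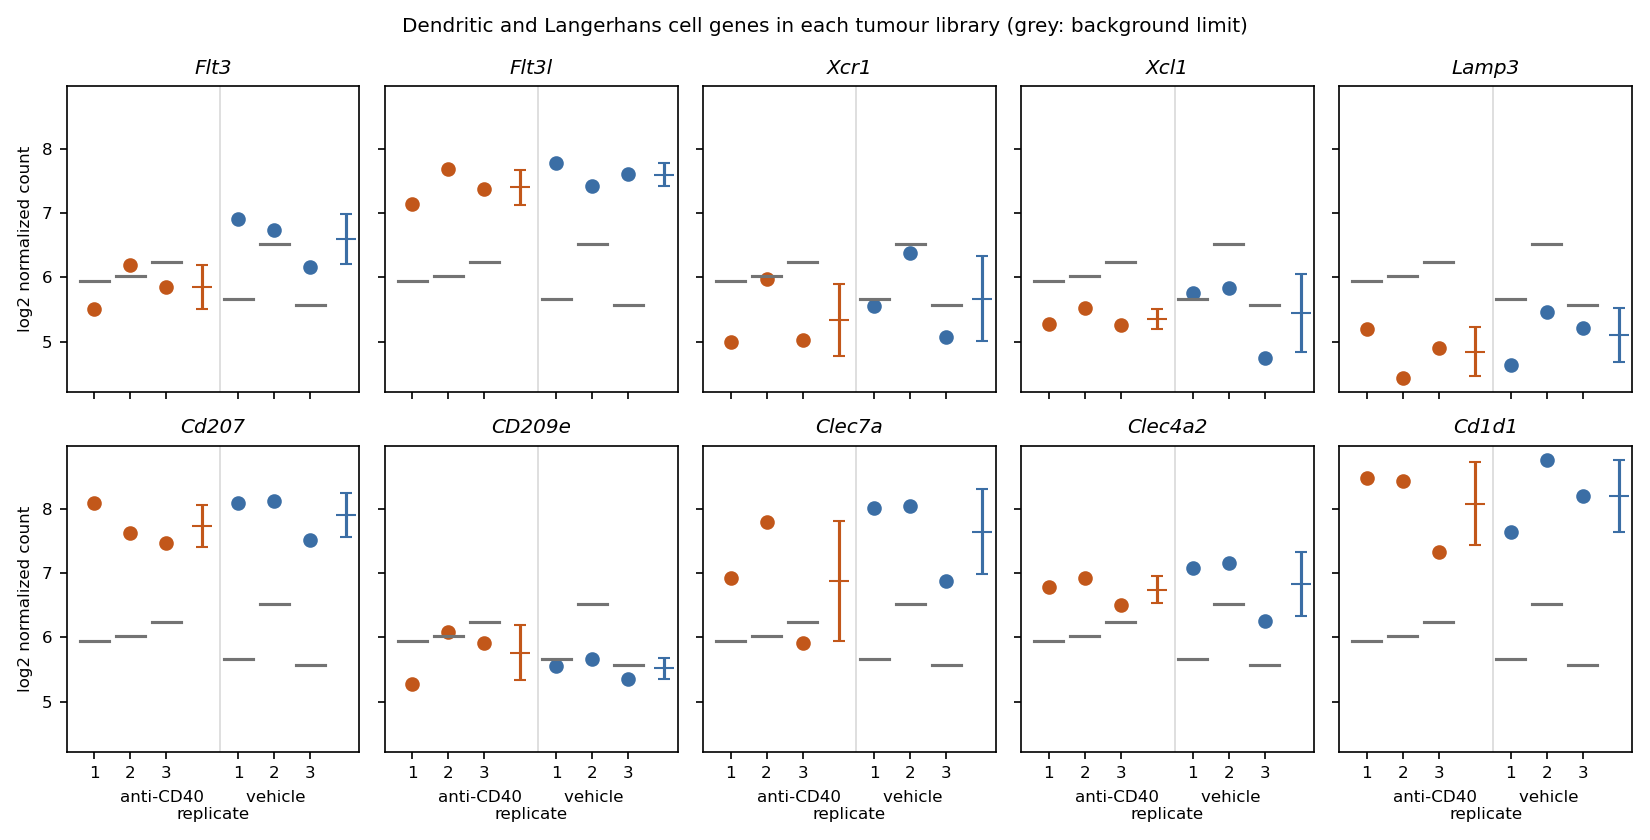
Level of each gene (log2 normalized count, vertical axis) in the 3 anti-CD40 and 3 vehicle libraries (points), with the group mean and SD to the right of each group and the background limit of each library as a grey bar. Flt3l, Cd207, Clec4a2 and Cd1d1 lie above the limit in all 6 libraries, and Xcr1 and Lamp3 in none.

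**Figure D2:**
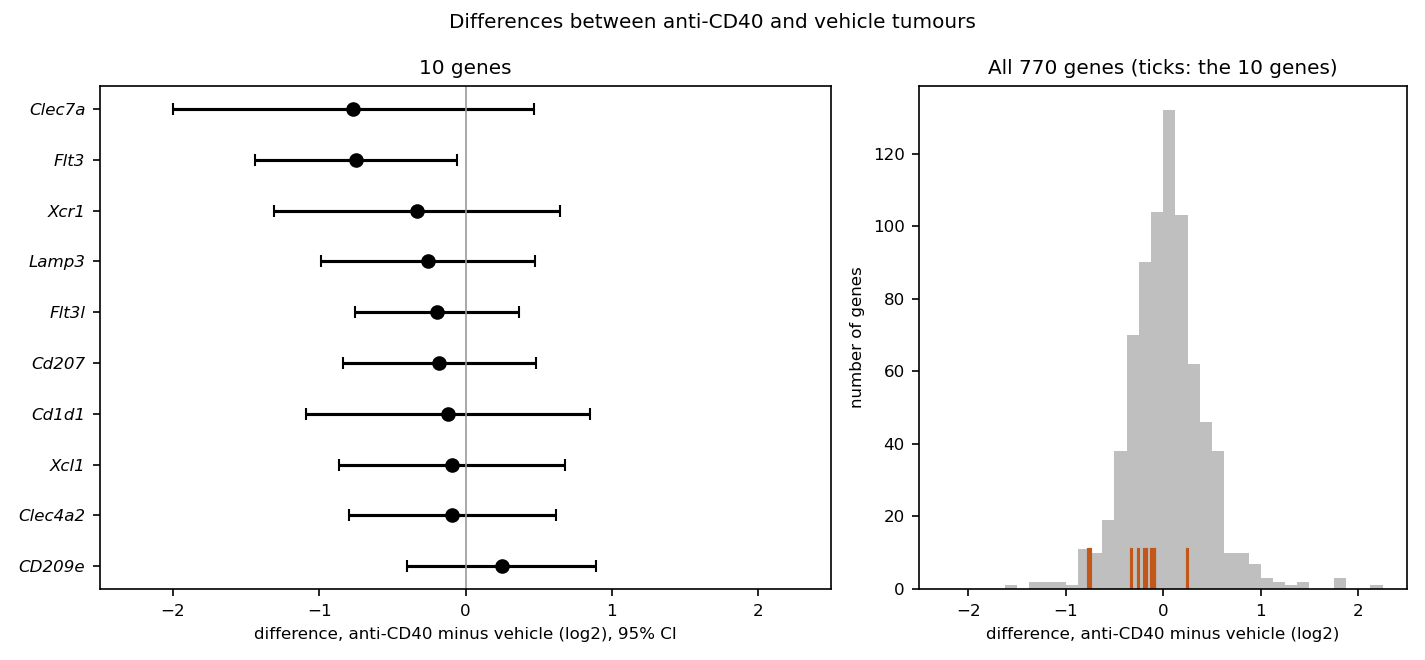
Left, difference of each of the 10 genes (log2, anti-CD40 minus vehicle) with its 95% confidence interval from limma. Right, the number of genes at each difference over all 770, with the 10 genes as ticks; 9 ticks lie below 0 and all lie within the range of the other genes.

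Promoter sequence is shown for the gene of lowest p (Flt3), the gene with the largest difference (Clec7a), a lectin gene whose 3 highest libraries were the same as those of both (Clec4a2) and a Langerhans cell gene (Cd207). Each window is the 250 bases before the annotated start, read 5′ to 3′ on the gene's strand, from RefSeq, assembly GRCm38.p6, in which 9 of the 10 genes matched. For Clec7a, which has 2 annotated starts a few bases apart, 1 window is shown. Capitals mark GAGGAA on either strand, the core bound by PU.1, a transcription factor of myeloid and dendritic cells. The expression table names no genome build, so these coordinates belong to the RefSeq table alone.
Flt3, chr5:147400490-147400739, minus strand: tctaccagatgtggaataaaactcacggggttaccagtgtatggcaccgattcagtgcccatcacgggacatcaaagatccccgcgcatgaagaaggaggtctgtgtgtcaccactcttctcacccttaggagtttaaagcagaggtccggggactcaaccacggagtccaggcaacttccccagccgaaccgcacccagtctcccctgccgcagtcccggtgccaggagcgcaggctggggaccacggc
Clec7a, chr6:129472780-129473029, minus strand: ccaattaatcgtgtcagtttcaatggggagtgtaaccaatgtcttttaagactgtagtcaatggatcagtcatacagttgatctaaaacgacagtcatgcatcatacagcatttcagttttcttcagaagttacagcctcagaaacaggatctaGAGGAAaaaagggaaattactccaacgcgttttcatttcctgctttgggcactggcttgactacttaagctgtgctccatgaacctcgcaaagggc
Clec4a2, chr6:123122440-123122689, plus strand: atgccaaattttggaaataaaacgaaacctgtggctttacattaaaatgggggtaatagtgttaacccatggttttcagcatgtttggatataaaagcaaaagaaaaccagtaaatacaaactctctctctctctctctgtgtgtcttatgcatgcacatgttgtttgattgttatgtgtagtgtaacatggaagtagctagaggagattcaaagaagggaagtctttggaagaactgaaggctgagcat
Cd207, chr6:83677858-83678107, minus strand: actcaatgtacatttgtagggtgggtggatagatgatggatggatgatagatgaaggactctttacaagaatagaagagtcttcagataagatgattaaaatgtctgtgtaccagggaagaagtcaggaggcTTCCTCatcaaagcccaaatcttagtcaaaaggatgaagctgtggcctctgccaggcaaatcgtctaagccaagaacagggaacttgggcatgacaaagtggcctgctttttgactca

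The letters GAGGAA stand once in the Clec7a window, 96 to 91 bases before the start, and once in the Cd207 window on the opposite strand, 118 to 113 bases before it, whereas neither the Flt3 nor the Clec4a2 window holds them. Of 32851 RefSeq windows of this length, 23.3% hold GAGGAA. The windows of the other 5 matched genes do not hold them either. These matches describe letters, not binding.

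Flt3 encodes the receptor tyrosine kinase of dendritic cell precursors and dendritic cells. Its level was 5.52, 6.19 and 5.85 in the anti-CD40 tumours and 6.91, 6.73 and 6.16 in the vehicle tumours. The groups met only at anti-CD40 2 and vehicle 3. In recovered counts Flt3 had 18, 28 and 19 in anti-CD40 libraries and 63, 31 and 39 in vehicle libraries, so it lay above background in 1 of 3 anti-CD40 and 3 of 3 vehicle libraries. The means were 5.85 ± 0.34 in anti-CD40 and 6.60 ± 0.39 in vehicle tumours (SD, n = 3 each), a difference of -0.75 with SE 0.29 and a 95% confidence interval from -1.44 to -0.061. Limma gave Flt3 an unadjusted p of 0.0367, rank 19 of 770, and an adjusted p of 0.974, and the exact permutation p was 0.2 (two-sided). The difference was -0.48 once values below each library's background limit were raised to that limit, with an unadjusted p of 0.11 by limma. Over all alternatives the unadjusted p of Flt3 by limma ran from 0.0095 with quantile scaling to 0.22 with each library centred on Ptprc. Without anti-CD40 1 it was 0.12, and without vehicle 3 it was 0.014.

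Flt3l, which encodes the ligand of Flt3, lay well above background in every library. It was 7.15, 7.69 and 7.38 in anti-CD40 tumours and 7.78, 7.43 and 7.61 in vehicle tumours, with overlapping ranges. The difference was -0.20 (SE 0.24, 95% confidence interval -0.76 to 0.37), between -0.34 without anti-CD40 2 and -0.065 without anti-CD40 1. Anti-CD40 2 had the highest level of its group for both the receptor and the ligand gene, and vehicle 1 the highest of all libraries for both.

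Xcr1 encodes the chemokine receptor of conventional dendritic cells that present antigen to CD8 T cells, and Xcl1 encodes its ligand, made by natural killer and CD8 T cells. Both lay at or near background. Xcr1 had 12, 24 and 10 counts in anti-CD40 libraries and 23, 24 and 17 in vehicle libraries, never above the limit. On the log2 scale these counts stood at 5.0, 5.98 and 5.02 in anti-CD40 tumours and 5.55, 6.38 and 5.08 in vehicle tumours, a difference of -0.33 (SE 0.42) with overlapping groups. The highest value, in vehicle 2, came from the same count of 24 as that of anti-CD40 2, with a library factor of 3.28 in vehicle 2 and 2.44 in anti-CD40 2. Without vehicle 2 the Xcr1 difference was 0.023.

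Xcl1 had 15, 17 and 12 counts in anti-CD40 libraries and 27, 16 and 13 in vehicle libraries, and only vehicle 1 passed the limit. Its levels were 5.28, 5.53 and 5.25 in anti-CD40 tumours and 5.76, 5.83 and 4.75 in vehicle tumours. The vehicle libraries thus spread on both sides of the anti-CD40 libraries, with a difference of -0.094 (SE 0.33, 95% confidence interval -0.87 to 0.68) that was 0.10 without vehicle 2, 0.061 without vehicle 1 and -0.44 without vehicle 3. For neither gene was a difference detectable at this depth.

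Lamp3, known in human as a lysosomal membrane protein of mature dendritic cells (DC-LAMP), had 14, 7 and 9 counts in anti-CD40 libraries and 11, 12 and 19 in vehicle libraries. It was at or below background in all 6 libraries, with 5.19, 4.44 and 4.89 in anti-CD40 tumours and 4.63, 5.46 and 5.22 in vehicle tumours. The difference of -0.26 (SE 0.31) ranged from -0.50 without vehicle 1 to -0.057 without anti-CD40 2. Xcr1, Xcl1 and Lamp3 all turned to positive differences, of 0.15, 0.12 and 0.15, when values under the background limit were raised to it, because the limits themselves differ between libraries.

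Cd207 encodes langerin, the lectin that forms the Birbeck granules of Langerhans cells, and was used here as a marker of these cells. Which cells its RNA came from was not tested. Cd207 was above background in every library, with 118, 79 and 62 counts in anti-CD40 libraries and 146, 84 and 104 in vehicle libraries. Its level was 8.10, 7.62 and 7.48 in anti-CD40 tumours and 8.09, 8.13 and 7.52 in vehicle tumours. Each group held both high and low libraries, and anti-CD40 1 was level with vehicle 1 and 2. The means were 7.73 ± 0.33 in anti-CD40 and 7.91 ± 0.34 in vehicle tumours (SD, n = 3 each), a difference of -0.18 with a 95% confidence interval from -0.84 to 0.48. It was -0.050 without anti-CD40 3 and -0.38 without vehicle 3.

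The 2 other Langerhans cell markers measured, Epcam and Cdh1, also belong to carcinoma epithelium. The summed normalized counts of the 3 markers were 5428 to 6986 in anti-CD40 libraries and 7252 to 8296 in vehicle libraries, without overlap. In every library Cd207 was the lowest of the 3, at 7.48 to 8.13 beside 10.16 to 11.52 for Epcam. Cdh1 was at 11.94 to 12.51, so these sums hold mainly Epcam and Cdh1. The 5 epithelial and carcinoma markers, which share Epcam and Cdh1 with that list, summed to 6846 to 7915 in anti-CD40 and 8461 to 9131 in vehicle libraries. The mean log2 level, in which each marker has equal weight, overlapped between the groups for both lists, at 9.93 to 10.48 in anti-CD40 and 10.25 to 10.63 in vehicle libraries for the Langerhans cell markers and at 9.21 to 9.44 in anti-CD40 and 9.27 to 9.55 in vehicle libraries for the epithelial markers. Of the 5 epithelial markers, 2 had higher and 3 lower means in anti-CD40 tumours. Cdh1, which encodes E-cadherin, through which Langerhans cells attach to keratinocytes, was 12.01, 12.13 and 11.94 in anti-CD40 tumours and 12.51, 12.25 and 12.41 in vehicle tumours, a difference of -0.36 (limma adjusted p = 0.974). The part of epithelial content in the Cd207 values was not tested.

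Clec7a encodes Dectin-1, the receptor for fungal beta-glucans on macrophages, neutrophils and dendritic cells, and had the largest SD of the 10 genes in the anti-CD40 group. It was 6.92, 7.79 and 5.92 in anti-CD40 tumours and 8.01, 8.04 and 6.88 in vehicle tumours. Anti-CD40 3 was the lowest library and the only one at background, with 20 counts, while anti-CD40 2 came close to vehicle 1 and 2. The means were 6.88 ± 0.94 in anti-CD40 and 7.65 ± 0.66 in vehicle tumours (SD, n = 3 each), a difference of -0.77 with SE 0.53 and a 95% confidence interval from -2.00 to 0.46. The exact permutation p was 0.3 and limma's adjusted p 0.974. Leaving out 1 library moved the difference between -1.22 without anti-CD40 2 and -0.29 without anti-CD40 3.

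Clec4a2 encodes DCIR, an inhibitory lectin of dendritic and other myeloid cells, and lies on chromosome 6 like Clec7a and Cd207. Its level was 6.78, 6.93 and 6.51 in anti-CD40 tumours and 7.08, 7.15 and 6.26 in vehicle tumours. The anti-CD40 libraries all lay inside the vehicle range. The difference was -0.091 (SE 0.30, 95% confidence interval -0.80 to 0.61), and it was positive without anti-CD40 3 (0.023), vehicle 1 (0.032) or vehicle 2 (0.071).

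CD209e, which encodes SIGNR4, a mouse relative of the human lectin DC-SIGN, was the 1 gene of the set with a higher mean in anti-CD40 tumours. It had 15, 26 and 20 counts in anti-CD40 libraries and 23, 14 and 21 in vehicle libraries, above background only in anti-CD40 2. In log2 values it was 5.28, 6.09 and 5.92 in anti-CD40 tumours and 5.55, 5.66 and 5.34 in vehicle tumours, with the lowest library of all in the anti-CD40 group. The difference of 0.25 (SE 0.28) was 0.083 without anti-CD40 2, 0.49 without anti-CD40 1 and 0.53 with each library centred on Ptprc. CD209e, Clec4a2 and Cd1d1 have close relatives in the mouse genome, and the probe sequences, which would show whether copies share signal, were not used here.

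Cd1d1 encodes CD1d, the molecule that presents lipid antigens to natural killer T cells and is carried by dendritic cells, macrophages, B cells and epithelium. It was 8.48, 8.44 and 7.33 in anti-CD40 tumours and 7.64, 8.76 and 8.21 in vehicle tumours. One library of each group, anti-CD40 3 and vehicle 1, stood below the others. The difference was -0.12 (SE 0.41, 95% confidence interval -1.09 to 0.85), with 0.25 without anti-CD40 3, 0.16 without vehicle 2 and -0.41 without vehicle 1. Cd1d2, its near-identical neighbour gene, was at or below background in every library, at 5.78, 5.86 and 6.05 in anti-CD40 tumours and 4.73, 5.75 and 4.92 in vehicle tumours. Its groups did not overlap, beside 6.75% of all genes that were higher in anti-CD40 tumours in that way, with a difference of 0.76. With values raised to the background limit it was 0.15, which is the difference between the limits alone.

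Single libraries stood out across the 10 genes. Vehicle 2 was the highest library for 7 of them, beside 26.1% of all genes, and vehicle 1 for 2. Anti-CD40 1 was the lowest for 4, beside 20.4% of all genes, anti-CD40 3 for 3, beside 13.9%, and vehicle 3 for 2, beside 41.6%. Vehicle 2 had the largest library factor, 3.28, and the highest background limit, 6.52. Among the genes highest in vehicle 2, Xcr1, Xcl1 and Lamp3 lay below that limit. In recovered counts Xcl1 was highest in vehicle 1, with 27 beside 16 in vehicle 2. Lamp3 was highest in vehicle 3, with 19 counts beside 12 in vehicle 2. Averaged over the set, each gene's deviation from its own mean was -0.16, 0.14 and -0.37 in anti-CD40 1, 2 and 3 and 0.17, 0.43 and -0.22 in vehicle 1, 2 and 3. For all 770 genes the same average was -0.018, 0.16 and -0.083 in the anti-CD40 libraries and 0.064, 0.18 and -0.31 in the vehicle libraries.

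**Figure D3:**
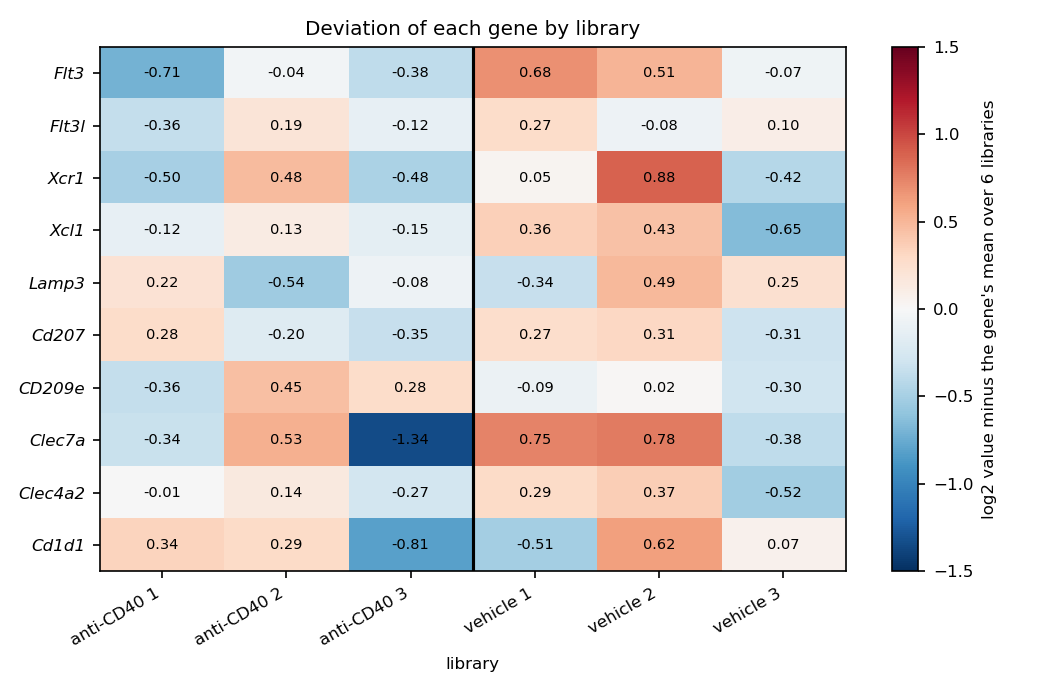
Deviation of each gene from its mean over the 6 libraries (log2; colour and printed value), with anti-CD40 libraries left of the line and vehicle libraries right of it. Clec7a in anti-CD40 3 has the lowest value, -1.34, and Xcr1 in vehicle 2 the highest, 0.88. Both levels lay at or below the background limit of their library.

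Flt3, Xcr1, Xcl1, Clec7a and Clec4a2 had their 3 highest values in the same libraries, vehicle 1, vehicle 2 and anti-CD40 2. These were also the 3 libraries with the most Ptprc, the gene of the leukocyte surface protein CD45, which was 8.49, 9.34 and 8.48 in anti-CD40 tumours and 9.37, 9.26 and 8.54 in vehicle tumours. Of the other 769 genes, 16.5% had their 3 highest values there. Flt3l, Cd207, Lamp3, Cd1d1 and CD209e did not follow that order. Among the genes that did, Xcr1 lay above background in no library and Xcl1 only in vehicle 1. Xcl1 had 16 counts in vehicle 2 and 17 in anti-CD40 2, beside 15 in anti-CD40 1. Ptprc itself differed by -0.29 between the groups, so centring each library on it adds that amount to every difference and puts the median of all genes at 0.33. With that centring, chosen after the data were seen, 3 of the 10 genes stayed lower in anti-CD40 tumours, namely Flt3 by -0.46, Clec7a by -0.48 and Xcr1 by -0.046. The part of leukocyte content in these differences was not tested.

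**Figure D4:**
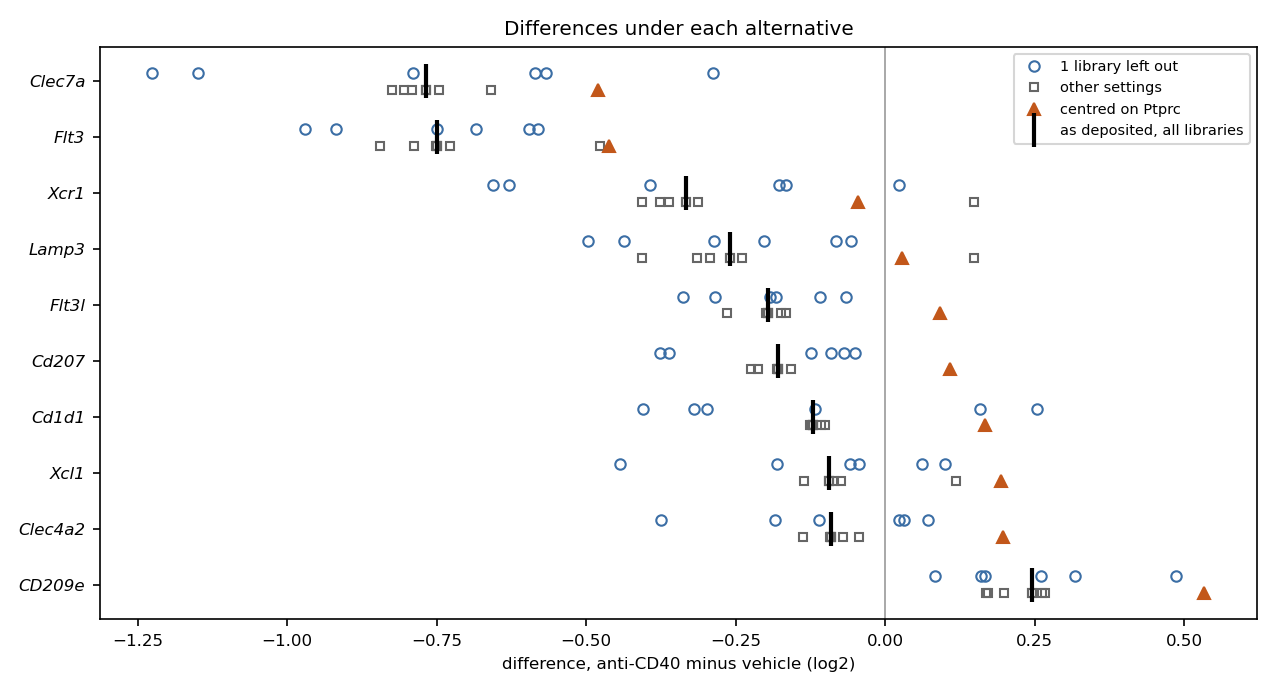
Difference of each gene (log2, anti-CD40 minus vehicle) as deposited with all libraries (black bars), with 1 library left out (circles), under other settings (squares) and with each library centred on Ptprc (triangles). Clec7a and Flt3 stay below 0 and CD209e above 0 in every setting shown, while the other 7 genes have values on both sides of 0. CD209e lay above background only in anti-CD40 2.

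Other genes of dendritic cell biology were examined in 6 lists, and none of them held a gene past limma's adjusted threshold. Of 12 measured genes of dendritic cell development and identity, 6 had higher and 6 lower means, with a median difference of -0.064. Irf4, a transcription factor of a conventional dendritic cell subset and of lymphocytes, was 6.95, 6.60 and 7.26 in anti-CD40 tumours and 6.35, 6.54 and 6.13 in vehicle tumours. It was the 1 gene of this list whose groups did not overlap, beside 10.3% of all genes, with a difference of 0.60 (SE 0.26). Thbd, thrombomodulin, which also marks endothelium, differed by 0.41, and Itgae, which encodes CD103 on dendritic and T cells, by -0.38. Those differences were 0.23 for Thbd without vehicle 2 and -0.17 for Itgae without anti-CD40 1.

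Genes of dendritic cell maturation and migration had lower means in anti-CD40 tumours for 13 of 16, beside 45.5% of all genes. Their median difference was -0.21, beside 0.038 for all genes. Cd40, the target of the antibody, was 6.92, 7.09 and 6.16 in anti-CD40 tumours and 7.36, 7.05 and 6.53 in vehicle tumours, with overlapping groups. It differed by -0.25, and by 0.028 once anti-CD40 3 was left out. Ccl22, a chemokine of mature dendritic cells and macrophages, was 7.48, 7.99 and 7.38 in anti-CD40 tumours and 8.33, 8.04 and 8.25 in vehicle tumours. Cd274, which encodes PD-L1, was 7.30, 8.08 and 8.19 in anti-CD40 tumours and 9.58, 8.57 and 8.51 in vehicle tumours. Those 2 were the genes of the list whose groups did not overlap, 2 of 16 beside 10.3% of all genes. By limma, Ccl22 and Cd274 had unadjusted p-values of 0.0468 and 0.0304, both 0.974 after adjustment. The Cd274 difference of -1.03 was -0.68 without vehicle 1. Pdcd1lg2, which encodes PD-L2, differed by -0.52 and was above background in 2 of 6 libraries, and the difference turned to 0.021 with values raised to the background limit. Centred on Ptprc, the differences were 0.035 for Cd40, -0.30 for Ccl22, -0.74 for Cd274 and -0.23 for Pdcd1lg2.

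In the niche that holds Langerhans cells, 6 of 9 genes had lower means and 3 higher, beside 45.5% of all genes with a lower mean. Ccl20, the epithelial chemokine that attracts Ccr6-bearing Langerhans cell precursors, was 6.15, 7.47 and 6.27 in anti-CD40 tumours and 8.18, 8.11 and 7.65 in vehicle tumours. The groups did not overlap, and the difference of -1.35 had an unadjusted p of 0.00955 and an adjusted p of 0.974 by limma. Axl, a receptor tyrosine kinase carried by Langerhans cells and many other cells, was 11.47, 11.36 and 11.81 in anti-CD40 tumours and 10.85, 11.06 and 11.05 in vehicle tumours. Cdh1, given above, and Tgfbr1, a receptor of TGF-beta named after its values were seen, were the other genes of this list without overlap, Tgfbr1 with a difference of 0.28. The list thus held 2 lower and 2 higher genes without overlap, beside 3.51% and 6.75% of all genes.

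Of 7 genes of C-type lectin signalling and other lectins, 4 had higher and 3 lower means, with a median of 0.056. Mrc1, the mannose receptor of macrophages, differed by 0.38 with groups that did not overlap, and by 0.20 without vehicle 3. It was the 1 gene of these 7 without overlap, beside 10.3% of all genes. Syk, the kinase through which Dectin-1 signals, was 9.02, 9.07 and 8.67 in anti-CD40 tumours and 8.52, 9.27 and 8.19 in vehicle tumours. Its difference of 0.26 was 0.028 without vehicle 3 and 0.57 without vehicle 2. Fcer1g, an adaptor of Fc receptors and several lectins, differed by 0.11, and by -0.086 without vehicle 3.

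Of 14 genes of natural killer and CD8 T cells, the sources of the Xcr1 ligand, 10 had lower and 4 higher means. Over all genes, 45.5% had a lower mean. Of the 14 genes, 5 were above background in no library. Klrk1, which encodes NKG2D, was 6.32, 6.41 and 6.05 in anti-CD40 tumours and 7.09, 6.78 and 6.60 in vehicle tumours, without overlap. It was the 1 such gene of the 14, beside 10.3% of all genes. Klrd1, which encodes CD94, differed by -0.43, which was -0.27 without vehicle 1 and -0.64 without vehicle 3. Prf1, perforin, was at or below background in all 6 libraries, and its difference of 0.81 was 1.22 without anti-CD40 3. With values raised to the background limit it was 0.15, which is the difference between the limits alone. Of 6 genes around CD1 presentation and natural killer T cells, 4 were above background in no library. Besides Cd1d2, the genes of lowest p in that list were Slamf1, a receptor of T cells and other leukocytes, with 6.28, 6.14 and 6.86 in anti-CD40 tumours and 4.83, 6.49 and 5.22 in vehicle tumours, and Sh2d1a, the adaptor of the same receptor family. The Slamf1 difference of 0.92 was 0.57 without vehicle 1 and 1.41 without vehicle 2. Sh2d1a was at or below background in all 6 libraries, with a difference of 0.21 that turned to -0.21 without vehicle 3.

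Markers of the cells that share these genes were set beside them. Of 9 listed dendritic cell markers 5 were measured, 0 of which were above background in every library, and Xcr1 and Lamp3 were above it in none. All 5, among them Flt3, Xcr1 and Lamp3 themselves, had lower means in anti-CD40 tumours, with a median difference of -0.26. That median is the value of Lamp3, and the 12 development and identity genes above split 6 to 6. Over all 770 genes, 420 had higher and 350 (45.5%) lower means, with a median difference of 0.038. The summed normalized counts of the 5 dendritic cell markers were 231 to 371 in anti-CD40 libraries and 290 to 442 in vehicle libraries. Markers of macrophages and monocytes, 8 of 10 above background in every library, had higher means for 7 of 10, with a median difference of 0.39, and summed to 4210 to 5143 in anti-CD40 and 3114 to 4991 in vehicle libraries. Those of neutrophils and immature granulocytes, 3 of 9 above background in every library, had higher means for 8 of 9, with a median difference of 0.66. They summed to 28360 to 150290 in anti-CD40 and 28721 to 146716 in vehicle libraries, and the single gene S100a8 made up 94.8% to 99.4% of each sum. Their mean log2 level varied widely within both groups, at 9.40, 8.84 and 6.85 in anti-CD40 and 7.03, 9.42 and 6.53 in vehicle libraries. For natural killer and CD8 T cells, 2 of 11 were above background in every library, with sums of 499 to 735 in anti-CD40 and 514 to 796 in vehicle libraries. Lower means were found for 7 of these 11, with a median difference of -0.26. For B cells, 0 of 9 were above background in every library, with sums of 294 to 657 in anti-CD40 and 270 to 1195 in vehicle libraries. Of these 9, 5 had higher and 4 lower means, with a median difference of 0.12. Fibroblast markers had higher means for 6 of 6, with a median difference of 0.16 and sums of 28960 to 42099 in anti-CD40 and 20487 to 36618 in vehicle libraries. Endothelial markers had higher means for 5 of 6, with a median difference of 0.28 and sums of 4799 to 7659 in anti-CD40 and 4145 to 6413 in vehicle libraries. Each of these 7 sums overlapped between the groups, 0 of the markers passed limma's adjusted threshold, and their part in the values of Clec7a, Clec4a2, Cd1d1 and Xcl1 was not tested.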

How the data were processed

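RNA of 3 anti-CD40 and 3 vehicle tumours was extracted from fixed tissue, per the labels' protocols. The deposited table, named by the authors as log2 normalized counts, holds 770 genes, 6 positive and 8 negative controls. The sources used here do not give the counting platform, software or normalization. Each of the 4704 deposited log2 values fitted a whole count (tolerance 0.05) multiplied by a factor of its library, with 4.55 added before the logarithm, and whole counts were recovered on that basis. The factors were 1.72 to 3.28, so counts near background are scaled unequally, and the offset understates differences of genes with few counts.

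Groups were compared with limma 3.58.1 in R 4.3.3 (lmFit and eBayes, two-sided, 4 residual and 3.37 prior degrees of freedom) on the deposited values of all 770 genes, with Benjamini-Hochberg adjustment over them and a threshold of 0.05. The procedure was tested on simulated data. Counts were recovered with pandas 2.3.3 in Python 3.11.15, and plots were drawn with matplotlib 3.10.9. The labels do not say whether same-numbered samples are pairs, and the numbers were not taken as pairs. Deviations of same-numbered samples from the group means correlated at -0.43, 0.069 and 0.28. Those of differently numbered samples correlated at -0.56 to 0.48, so these correlations cannot decide whether there was pairing. The 10 genes and the lists were chosen with earlier results of these data known. From each list of related genes the text names the 3 of lowest p, plus Cd40 and, chosen after its values were seen, Tgfbr1. Alternatives were each sample left out, the replicate number as a block, quantile scaling, centring on 20 housekeeping genes or on Ptprc, a filter (above background in at least 3 libraries), a floor at background, the offset replaced by a pseudocount of 1, limma-trend and limma-voom.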

Additional observations from a re-analysis of the deposited data

How the results depend on the processing

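Limma called 0 genes under every alternative tried, each of which tested all 770 genes and the 10 described, except the filter on background, which tested 618 and 6 of the 10. The alternatives gave 13 to 52 genes at an unadjusted p under 0.05, with 31 by limma-voom on recovered counts. With the replicate number as a block it called 0 genes, 32 at an unadjusted p under 0.05, and no call changed. No paired analysis is drawn from it, since the labels do not say whether the numbers mark pairs. Flt3 and Clec7a kept negative and CD209e positive differences in all alternatives that tested them. CD209e lay above background only in anti-CD40 2, so its sign says little. With values raised to the background limit its difference was 0.17, beside 0.15 for the limits alone. Centring on Ptprc raises every difference, that of CD209e to 0.53. Of the 10 genes, 9 had a lower mean in anti-CD40 tumours, 5 without vehicle 2, 7 without vehicle 1 or anti-CD40 3, 6 with the floor at background and 3 centred on Ptprc. Signs turned elsewhere. With 1 library left out, the lowest values were -0.66 for Xcr1, -0.44 for Xcl1, -0.41 for Cd1d1, -0.38 for Clec4a2 and -0.48 for Cd40, and the highest were 0.26 for Fcer1g and 0.49 for Sh2d1a. Without vehicle 2 the difference was 0.023 for Xcr1, 0.10 for Xcl1, 0.16 for Cd1d1 and 0.071 for Clec4a2. Without vehicle 1 it was 0.061 for Xcl1 and 0.032 for Clec4a2, and without anti-CD40 3 it was 0.25 for Cd1d1, 0.023 for Clec4a2 and 0.028 for Cd40. Without vehicle 3 it was -0.086 for Fcer1g and -0.21 for Sh2d1a. With values raised to the background limit it was 0.15 for Xcr1 and Lamp3, which is the difference between the limits alone, 0.12 for Xcl1 and 0.021 for Pdcd1lg2. Centred on Ptprc it was 0.092 for Flt3l, 0.19 for Xcl1, 0.11 for Cd207, 0.028 for Lamp3, 0.17 for Cd1d1, 0.20 for Clec4a2 and 0.035 for Cd40. Counts near the limit of 24.7 to 26.6 restrict what can be said of Xcr1, Xcl1, Lamp3 and CD209e.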
